A study of Mus musculus with 8 samples.

Results

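The genes described here are 10 that code for enzymes cutting the extracellular matrix, or for inhibitors of these enzymes, namely Mmp2, Mmp3, Mmp10, Mmp12, Mmp13, Mmp14, Adamts1, Adamts4, Timp1 and Timp3. They were found by their gene names among the 29608 gene names on the array, and 12 of its 39429 probes read them, 1 probe for each gene and a pair for Mmp12 and Adamts4. They were selected on measured values, their ratios of PACAP over vehicle in these arrays, so those ratios are given as a description and carry no test. PACAP (pituitary adenylate cyclase-activating polypeptide) is a neuropeptide that acts on the receptor PAC1R, and the study injected it into mouse paw skin to see which genes respond in mice with and without that receptor.

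Matrix metalloproteinases are zinc-dependent enzymes, secreted or held at the cell surface as inactive proenzymes, that together cut most proteins of the extracellular matrix. ADAMTS proteinases are secreted relatives that cut proteoglycans such as aggrecan and versican. TIMPs are small secreted proteins that bind and block the active sites of matrix metalloproteinases, and Timp3 also blocks ADAMTS enzymes. In skin these genes are known from wound repair, where keratinocytes, fibroblasts and leukocytes make them.

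The groups were WT mice (C57BL/6J, labelled wild type) and PAC1R KO mice (Adcyap1r1 -/-, labelled with the same strain), male and 9 to 10 weeks old. All were anaesthetised and received 5 µL of vehicle (saline with 0.1% BSA) or the same volume holding 1e-07 mol/L PACAP in the footpad, so the controls also had a needle and fluid in the skin. Palm skin was taken at 30 or 60 min. The 8 RNA samples (vehicle and PACAP for WT and KO at each time) were hybridised as 4 pairs on 8 arrays with 2 colours, each pair on 2 arrays with the dyes exchanged. The 2 arrays of a pair hold the same RNA and were counted as 1 sample per group, so no ratio of PACAP over vehicle has a biological replicate. The study used 6 mice per genotype, and its text does not say whether the RNA of several mice was joined. The WT arrays shared 1 slide and the KO arrays a different one, so that genotype and slide cannot be told apart.

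Adcyap1r1, which codes for PAC1R and is the targeted gene, had log2 levels between 7.91 and 8.56 in the 4 KO samples and between 8.26 and 8.76 in the 4 WT samples, above background on every array, so its only probe did not set the genotypes apart. Whether that probe lies in the deleted part is not given in the sources used here, and KO below means the samples labelled KO. The tissue label was checked with markers. All 5 keratinocyte and all 6 fibroblast marker genes were above background on all arrays and in both channels, as were all 6 skeletal muscle, all 6 hair shaft and all 5 mast cell markers. Spots well above background made up 78.6% to 94.5% of an array in the red channel and 54.0% to 65.3% in the green.

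A fold is the mean Feature Extraction ratio of PACAP over vehicle over both arrays of a pair. A gene is called here where that mean reached at least 2.0-fold or at most 0.5-fold, both arrays had the same direction, and the software's p of the ratio was below 0.01 on both. This p speaks of the spots of 1 array and not of mice. A level is the log2 intensity in 1 RNA sample after a separate normalization (normexp, loess and Aquantile), averaged over both arrays, and levels of different probes are not compared. In whole skin, fewer cells of a type and less RNA per cell cannot be told apart.

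In WT mice 0 of the 10 genes were called at 30 min and 0 at 60 min, where 0.341% and 0.759% of all gene names measured were called higher. In KO mice 4 genes were called higher at 30 min (Mmp3, Mmp10, Mmp13 and Timp1), where 0.782% of gene names were, and 2 were called higher at 60 min (Mmp13 and Adamts4), where 0.198% were. None of the 10 was called lower in any of the 4 comparisons, where 0.138%, 0.133%, 0.111% and 0.179% of gene names were, in the order WT at 30 and 60 min and KO at 30 and 60 min. Since the genes were chosen with these ratios known, nothing is read from the counts against those shares. For WT mice their medians at the 2 times were 1.14-fold and 1.07-fold, and for KO mice 1.13-fold and 1.27-fold, where the median over all gene names was 0.972-fold, 0.993-fold, 1.0-fold and 1.0-fold. Their folds ran from 0.877 to 2.36 and from 0.816 to 2.15 in the WT pairs, and from 0.640 to 14.0 and from 0.328 to 2.09 in the KO pairs.

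**Figure D1:**
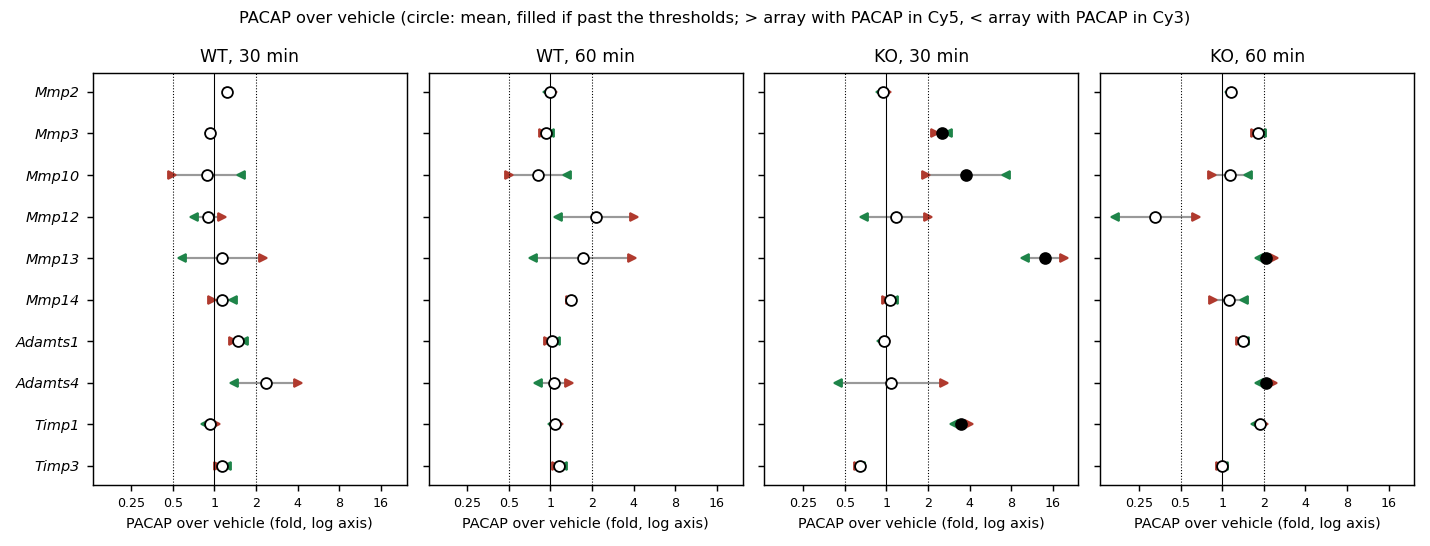
PACAP over vehicle (fold, log axis) of the 10 genes in the 4 comparisons. Circles are the mean over both arrays, filled where the gene was called, right-pointing triangles the array with PACAP in Cy5 and left-pointing triangles the array with PACAP in Cy3, with dotted lines at 2-fold and 0.5-fold. Filled circles are seen only for KO, with Mmp13 farthest to the right at 14.0-fold at 30 min, and the triangles of Mmp10, Mmp12, Mmp13 and Adamts4 lie far apart in most panels.

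The array signals rest on 60-base probes, of which the first 30 bases are printed, 5′ to 3′ as the files give them, for the genes called and for Timp3, which had the lowest fold among the genes with a bright probe. Positions are those of the whole probe on mm9, as the files give them.
Mmp3, chr9:7455751-7455810 (+ strand): ctttgtgaaaggaagtgctttgttcagcat
Mmp10, chr9:7510011-7510070 (+ strand): acaaccctgtaaaatgagtctcatgacttc
Mmp13, chr9:7282762-7282821 (+ strand): tcattactcaaggctatgcacactggtaga
Adamts4, the brighter probe, chr1:173190709-173190768 (+ strand): aatgagaggaacaggatgtggtctggtatt
Adamts4, the dimmer probe, chr1:173189952-173190011 (+ strand): cgcatctttgagcattagttttctcatgtg
Timp1, chrX:20451802-20451861 (+ strand): tacttttcctccatctttctttctcttaga
Timp3, chr10:85811696-85811755 (+ strand): atagtgacttttggggatagatctgtctgg
The pair of Adamts4 probes is shown because they gave different folds, described with that gene. The probes of the other genes were at chr8:95376840-95376899 (Mmp2), chr9:7352935-7352994 and chr9:7360373-7360432 (Mmp12, the brighter and the dimmer), chr14:55058775-55058834 (Mmp14) and chr16:85795044-85795103 (Adamts1, - strand), and whether a probe lies in coding or untranslated sequence is not given in the sources used here.

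Mmp3, Mmp10, Mmp12 and Mmp13 lie in 1 cluster of metalloproteinase genes on chromosome 9. The 150 bases before the RefSeq start of each are printed on GRCm38.p6, together with those of Timp1, the called gene outside the cluster that has a window in the same RefSeq set. Capitals mark TGANTCA, the letters of an AP-1 site, which read the same on both strands.
Mmp3, chr9:7445672-7445821 (+ strand): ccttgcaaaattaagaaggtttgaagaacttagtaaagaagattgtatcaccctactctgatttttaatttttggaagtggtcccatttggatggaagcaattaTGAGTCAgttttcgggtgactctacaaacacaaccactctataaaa
Mmp10, chr9:7502192-7502341 (+ strand): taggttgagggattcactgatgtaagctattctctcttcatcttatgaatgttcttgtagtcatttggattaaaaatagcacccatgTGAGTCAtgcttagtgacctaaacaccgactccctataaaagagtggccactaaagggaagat
Mmp12, the later start, chr9:7347224-7347373 (+ strand): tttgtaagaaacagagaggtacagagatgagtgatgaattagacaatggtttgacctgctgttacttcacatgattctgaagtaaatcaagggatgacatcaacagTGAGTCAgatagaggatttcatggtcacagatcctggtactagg
Mmp13, chr9:7272364-7272513 (+ strand): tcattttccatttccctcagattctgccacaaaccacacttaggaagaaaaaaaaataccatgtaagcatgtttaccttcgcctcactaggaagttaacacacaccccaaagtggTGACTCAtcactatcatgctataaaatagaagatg
Timp1, chrX:20870016-20870165 (+ strand): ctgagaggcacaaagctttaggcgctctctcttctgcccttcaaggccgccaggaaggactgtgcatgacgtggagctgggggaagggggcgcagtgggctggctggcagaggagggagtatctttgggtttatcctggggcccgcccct
In the 250 bases before the start, TGANTCA was found in 4 of the 8 genes with a window (Mmp3, Mmp10, Mmp12 and Mmp13) and in 7.82% of all 27025 genes with one. Counted from the start, its first base was at -46 in Mmp3, -63 in Mmp10, -44 in Mmp12 and -35 in Mmp13. Mmp12 has a further window, for an earlier start, without these letters. The windows of Mmp14, Adamts1, Timp1 and Timp3 did not hold them, and Mmp2 and Adamts4 have no window in the table. Over the whole cluster 8 of 10 genes held TGANTCA (Mmp1a, Mmp1b, Mmp7 and Mmp20 besides the 4 above), of the 13 other metalloproteinase genes with a window 4 did (the same 4 cluster genes), and of 9 other Adamts genes and 3 other inhibitor genes 0 did. TATAAA, the letters of a TATA box, were found in Mmp3, Mmp10, Mmp13 and Adamts1, and in 12.4% of all 32851 windows. AACCACA, the letters of a RUNX site, were found in Mmp13 alone among the 8 genes, and in 4.4% of windows, while TGACGTCA, the letters of a cAMP response element (1.55% of windows), was in none of them. Both strands were searched for each, and no motif overlapped another. These are matches of letters in a window and not measured binding.

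Mmp13, also called collagenase 3, cuts fibrillar collagens. In KO at 30 min its log2 level was 6.24 with vehicle and 7.88 with PACAP, and the vehicle channel was above background on 1 of its 2 arrays. The ratio was 14.0-fold (19.4 and 10.1 on the 2 arrays), the highest of the 40 Feature Extraction ratios of the 10 genes. From the levels the fold was 3.11, under the 3.37 of Timp1 in this comparison. The size of the ratio thus depended on the normalization while the call did not. In KO at 60 min the level was 6.40 with vehicle and 6.83 with PACAP, and the ratio was 2.09-fold (2.37 and 1.84). That call was lost with normexp and loess ratios, which gave 1.35-fold, with the fold threshold on each array and without the array that had PACAP in Cy5.
In WT the levels of Mmp13 were 6.35 and 6.38 at 30 min, and 6.26 and 6.32 at 60 min, for vehicle and PACAP. Each of these 4 samples was above background on 1 of 2 arrays, and the arrays of a pair pointed in opposite directions (2.24 and 0.585-fold at 30 min, 3.91 and 0.751-fold at 60 min). The KO samples with PACAP were the highest, and the 6 other samples lay between 6.24 and 6.40.

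Mmp3, stromelysin 1, cuts proteoglycans, fibronectin and basement membrane proteins and activates other proenzymes of the family. Its probe was above background in every channel. In KO at 30 min its level was 10.87 with vehicle and 12.17 with PACAP, a ratio of 2.52-fold (2.26 and 2.82). At 60 min the levels were 11.11 and 11.93, and the ratio of 1.83-fold (1.73 and 1.93) was under the threshold, with a Feature Extraction p of 0.00026 and 2.0e-05. The WT levels of 10.76 and 10.71 at 30 min, and 10.64 and 10.57 at 60 min, gave ratios of 0.930-fold and 0.935-fold. Both KO samples with PACAP were thus higher than all 6 other samples. The KO samples with vehicle were also higher than all 4 WT samples, but at 30 min the arrays overlapped. They read 10.97 and 10.77 with vehicle in KO, and 11.01 and 10.52 with vehicle in WT. All 4 KO samples lay above all 4 WT samples for 9.1% of the probes tested, and genotype lay with slide.

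Mmp10, stromelysin 2, has much the same substrates and is known from keratinocytes at wound edges. In KO at 30 min its level was 6.33 with vehicle and 7.06 with PACAP. The ratio was 3.77-fold, but the arrays gave 1.92 and 7.39, and the levels gave 1.66-fold. This call was lost with normexp and loess ratios, with the fold threshold on each array and without the array that had PACAP in Cy3. At 60 min in KO the levels were 6.58 and 6.71, with a ratio of 1.13-fold. In WT the arrays of a pair pointed in opposite directions at both times (0.490 and 1.57, then 0.501 and 1.33), around means of 0.877-fold and 0.816-fold, and the levels lay between 6.49 and 6.66. The PACAP sample of KO at 30 min was the highest of the 8 and the vehicle sample hybridised with it the lowest.

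Mmp12, the elastase of macrophages, was not called in any comparison. Its brighter probe was above background on 1 of 2 arrays in 7 of the 8 samples, with levels between 6.02 and 6.46. At 30 min its ratio was 0.903-fold for WT mice and 1.17-fold for KO mice, and at 60 min 2.15-fold (4.06 and 1.13) for WT and 0.328-fold (0.646 and 0.167) for KO. Both ratios at 60 min passed the fold threshold and failed the p on 1 array each, and the levels gave 1.17-fold and 0.835-fold. The dimmer probe was not well above background in any sample, and the software had set its ratios to 1.0.

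Mmp2, a gelatinase that cuts denatured and basement membrane collagen, and Mmp14, a membrane-bound enzyme known to activate the Mmp2 proenzyme, were not called. Mmp2 was above background in every channel, with levels from 11.91 to 12.21 in 7 samples and 12.51 in WT with PACAP at 30 min, and its ratios ran from 0.951 to 1.24-fold. Mmp14 was a dim probe, with levels from 6.28 to 6.76. Its ratios ran from 1.06 to 1.40-fold, and it was above background on 1 array only in WT with vehicle at 60 min and in both KO samples at 30 min.

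Adamts1, which cuts aggrecan and versican, was highest in the WT pair at 30 min, at 1.49-fold (1.36 and 1.63), and in the KO pair at 60 min, at 1.41-fold (1.36 and 1.47), both under the threshold. Its levels were 9.66 and 9.55 in these PACAP samples and between 8.89 and 9.10 in the 6 other samples. The ratios in WT at 60 min and KO at 30 min were 1.03-fold and 0.959-fold.
Adamts4, an aggrecanase, had its highest ratios in the same pairs. For the WT pair at 30 min its brighter probe gave 2.36-fold (4.02 and 1.38), which was not called because the second array's p was 0.325. For the KO pair at 60 min it gave 2.09-fold (2.34 and 1.86), which was called. The WT levels there were 6.24 and 6.48, the KO levels 6.65 and 7.19, and the level folds of 1.18 and 1.46 were smaller. The dimmer probe, 757 bases nearer the 5′ end, gave 1.19-fold and 1.77-fold in these comparisons and was not called in any. The KO call was lost with normexp and loess ratios, with the fold threshold on each array and without the array that had PACAP in Cy5. In WT at 60 min and KO at 30 min the brighter probe gave 1.06-fold and 1.09-fold, and its arrays disagreed in direction.

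Timp1, which inhibits most secreted metalloproteinases, was above background in every channel. In KO at 30 min its level was 10.09 with vehicle and 11.84 with PACAP, a ratio of 3.50-fold (3.96 and 3.09) and a level fold of 3.37. In KO at 60 min the levels were 10.29 and 11.17, and the ratio of 1.86-fold (2.02 and 1.72) was under the threshold. The WT levels were 9.62 and 9.57 at 30 min and 9.20 and 9.34 at 60 min, with ratios of 0.933-fold and 1.08-fold. All 4 KO samples were thus higher than all 4 WT samples, as for 9.1% of the probes tested. Genotype and slide cannot be told apart here. Of the KO samples, those with PACAP were the highest.
Timp3, an inhibitor bound to the matrix that also blocks ADAMTS and ADAM enzymes, had the opposite direction in KO at 30 min. Its level was 12.46 with vehicle and 11.81 with PACAP, a ratio of 0.640-fold (0.629 and 0.653, Feature Extraction p of 0.0017 and 0.0036), which was not past the 0.5-fold threshold. For WT mice the ratios were 1.14-fold and 1.16-fold, and for KO mice at 60 min 0.992-fold, with levels of 12.75 and 12.93, 12.02 and 12.23, and 12.07 and 12.12.

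**Figure D2:**
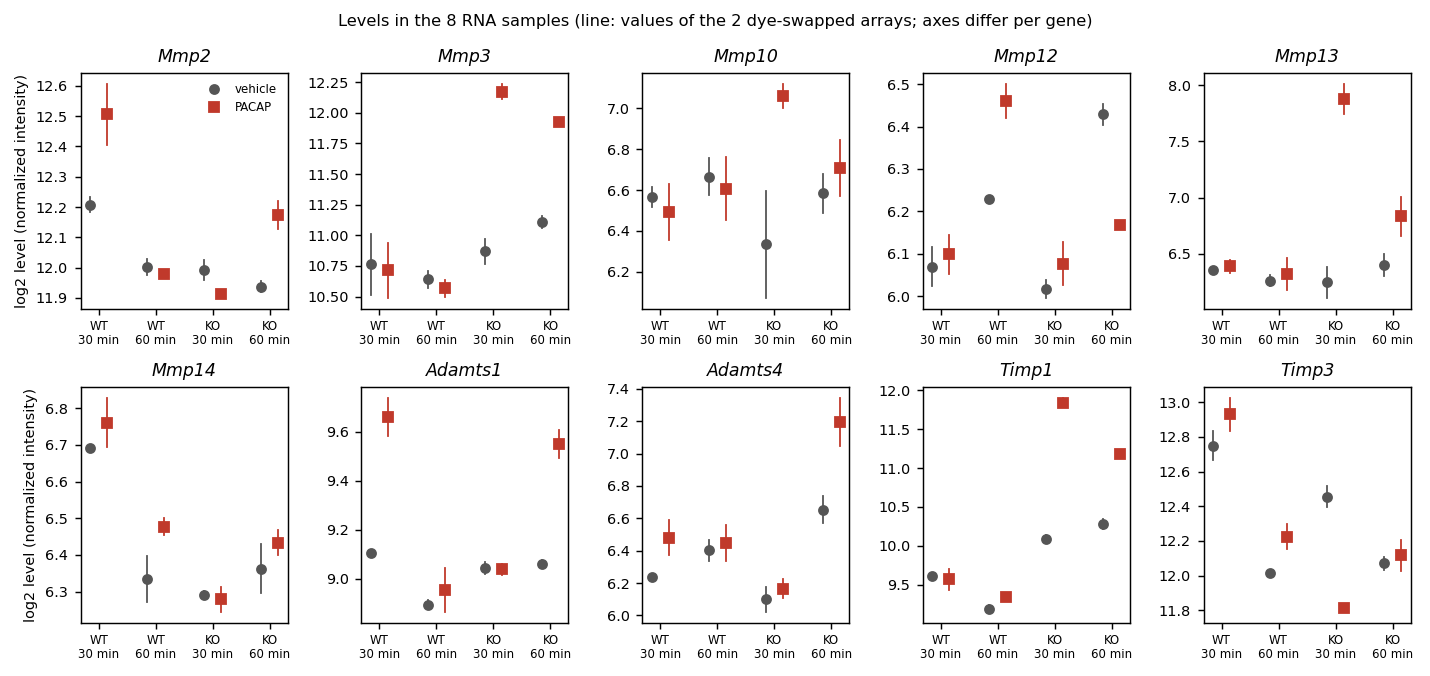
Log2 levels of the 10 genes in the 8 RNA samples, grey circles for vehicle and red squares for PACAP, with a line joining the values of the 2 dye-swapped arrays. Each gene has its own axis range. Timp1 and Mmp3 are higher in KO than in WT in every sample, as are 9.1% of the probes tested. Mmp13 stands out with PACAP in KO at 30 min, at 7.88 against 6.83 or less in the other samples.

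Over the 40 values of the 10 genes, the arrays of a pair pointed in opposite directions for 16, which were 5, 5, 3 and 3 values in WT at 30 and 60 min and KO at 30 and 60 min. Over all gene names measured the share was 37.7%, 50.2%, 34.5% and 51.8%. The 2 normalizations gave near equal folds for the bright probes of Mmp3 and Timp1, and mostly ones nearer to 1 by normexp and loess for the dim probes of Mmp10, Mmp12, Mmp13 and Adamts4.

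**Figure D3:**
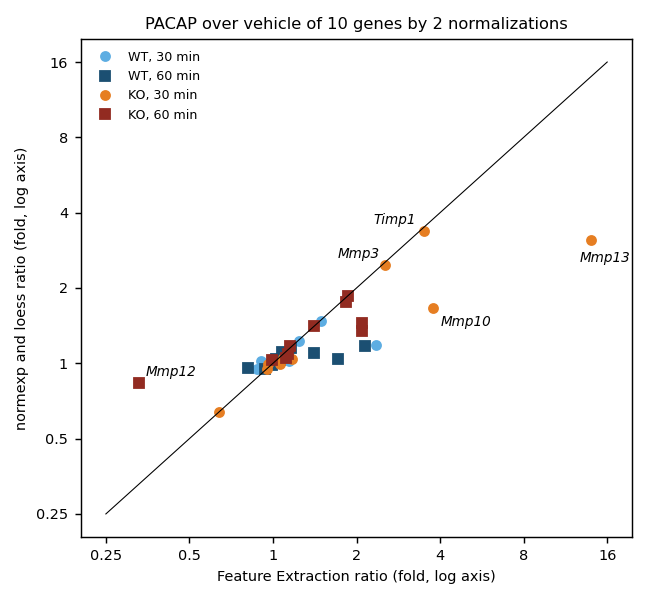
PACAP over vehicle of the 10 genes by Feature Extraction (x axis) and by normexp and loess (y axis), both as fold on log axes, 1 point for each gene and comparison, with the line of equal values. Timp1 and Mmp3 in KO at 30 min lie on the line at 3.50 and 2.52-fold, while Mmp13 (14.0 against 3.11) and Mmp10 (3.77 against 1.66) lie below it.

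Relatives of the 10 genes were looked at by lists. Of 17 other metalloproteinase genes, 2 were called higher in KO at 30 min, where 0.782% of gene names were, and 0 in the other comparisons, where 0.341%, 0.759% and 0.198% were. Mmp1b, a relative of interstitial collagenase, was at 4.6-fold (levels 6.11 and 6.58), and Mmp9, the gelatinase of neutrophils and keratinocytes, at 3.70-fold (6.10 and 6.44). Both had a vehicle channel above background on 1 of 2 arrays, and by the levels both rises were under the 2.0-fold threshold. The list's median was 1.13-fold in KO at 30 min and 1.0-fold in the other comparisons. Of 17 other Adamts genes, 4 other inhibitor genes, 9 membrane Adam genes, 7 genes of plasminogen activation and 12 matrix substrate genes, 0 were called in any of the 4 comparisons. The medians of these 5 lists ran from 0.885-fold (matrix substrates in KO at 30 min) to 1.19-fold (matrix substrates in WT at 30 min).

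In the cluster on chromosome 9, the probes of 10 metalloproteinase genes spanned 415 kb in the order Mmp13, Mmp12, Mmp1b, Mmp3, Mmp1a, Mmp10, Mmp8, Mmp27, Mmp20 and Mmp7 on mm9. In KO at 30 min 4 of the 10 were called higher, where 0.782% of all gene names were, with a median of 1.79-fold. They were Mmp1b and 3 genes of the set selected on these ratios (Mmp13, Mmp3 and Mmp10), so nothing is read from the count. In KO at 60 min 1 was (Mmp13), with a median of 1.14-fold. In WT 0 were called at either time, with medians of 1.0-fold. Of the genes between the called ones, Mmp12 was at 1.17-fold from arrays in opposite directions (1.99 and 0.685), and no ratio could be read for Mmp1a. Mmp8, the collagenase of neutrophils, was at 2.24-fold and not called, and Mmp27, above background in all 16 channels, was at 1.03-fold. Mmp20 was above background in 1 of 16 channels and Mmp1a in 5, too few to read a ratio.

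**Figure D4:**
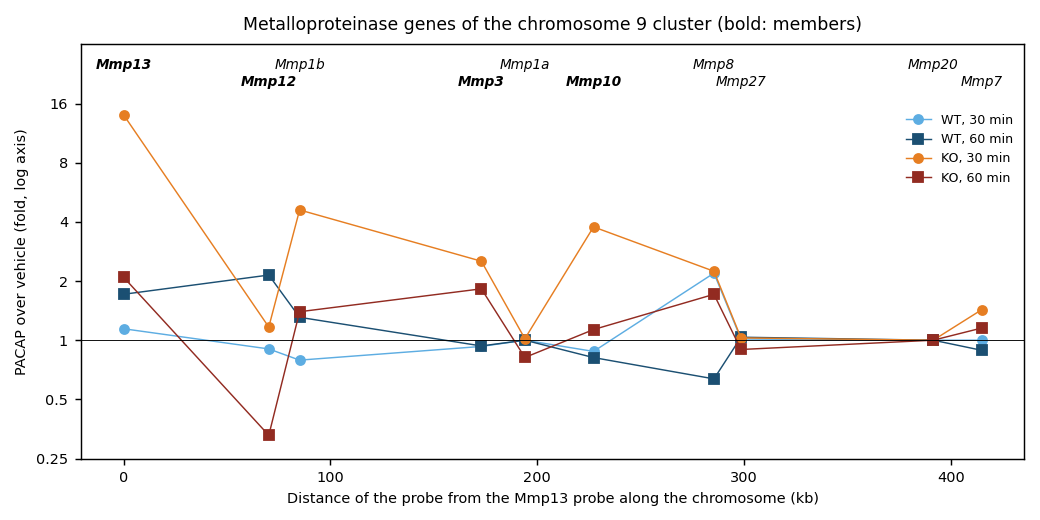
PACAP over vehicle (fold, log axis) of the 10 metalloproteinase genes of the chromosome 9 cluster against the distance of each probe from that of Mmp13 (kb), 1 line for each comparison, with names in bold for the 4 genes of the set. The KO line at 30 min is at 14.0-fold at Mmp13, 4.6 at Mmp1b, 2.52 at Mmp3 and 3.77 at Mmp10, and at 1.03 at Mmp27, while the points at 1 of Mmp1a and Mmp20 are from dim channels with ratios that the software set to 1.0 on at least 1 array.

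For each called gene, the genes outside the set with the nearest 4 ratios were found by the root mean square difference of log2 ratios over the 4 comparisons, among 23056 gene names. Nearest to Timp1 were Lcn2 (0.14), which codes for an iron-carrier binding protein of neutrophils and epithelia, and Hp (0.19), haptoglobin, which was also nearest to Mmp10 (0.25). Nearest to Mmp13 were Il1rl1 (0.68), a receptor of the interleukin-1 family, and Acod1 (0.71), the enzyme that makes itaconate. Nearest to Adamts4 were Olfr1033 (0.25) and Ptgs2 (0.27), an inducible prostaglandin synthase, whose own ratio was 2.72-fold for WT at 30 min and 1.74-fold for KO at 60 min. Nearest to Mmp3 were Fcmr (0.08) and Sh2d5 (0.11), and the next for Mmp10 was Nts (0.34). The 4 comparisons are the only points behind these distances.

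Markers of cell types moved in the comparison that held most of the calls. In KO at 30 min 2 of 5 keratinocyte markers were called lower (Krt1 0.455-fold and Krt10 0.365-fold), and the log2 of the summed intensity of the 5, called their sum below, was 18.05 with vehicle and 17.22 with PACAP, the highest and the lowest of the 8 samples. Of 6 skeletal muscle markers 2 were called lower (Acta1 0.458-fold and Myh4 0.402-fold), with sums of 16.56 and 15.80, and in WT at 30 min Myh4 was called higher (2.75-fold), with sums of 16.08 and 16.99. The 6 fibroblast markers had 0 calls and a median of 0.753-fold in KO at 30 min, with sums of 16.78 and 16.28, the latter the lowest of the 8 samples. The 8 neutrophil markers had 1 call, Mmp9, in KO at 30 min, with a median of 1.19-fold over the list. The sums there were 12.58 and 12.52. Csf3r was at 0.737-fold, Ly6g at 1.92-fold and Mmp8 at 2.24-fold, none of them called. Over all 8 samples the neutrophil sums lay between 12.32 and 12.82, and the sums of 6 monocyte and macrophage markers between 13.18 and 13.68. Hair shaft genes were called higher in WT at 30 min (1 of 6), WT at 60 min (4) and KO at 30 min (4), and their sums ran from 11.89 to 14.13. Of 8 cartilage and bone markers, Col10a1 was called lower at 30 min in WT (0.392-fold) and in KO (0.322-fold). The lists for endothelium, mast cells and eccrine glands had 0 calls. The eccrine gland median in KO at 30 min was 0.783-fold, with sums of 14.68 and 14.08, the latter the lowest of the 8 samples. No list had a gene that was never above background. The part of these shifts in the ratios of the 10 genes was not tested.

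Levels in the genotypes were compared with limma over all 8 RNA samples, with time and treatment as covariates and the hybridised pair as a random block. These samples gave the ratios above, so the differences of the 10 genes are not independent of how they were selected and are given without a p. Of the 10 genes 0 passed an adjusted p of 0.05, where 3.4% of the 26346 probes tested did. All 10 were among the probes tested, but Mmp13 had entered through KO samples alone, and Adamts4 and Mmp12 through KO samples at 60 min alone, the only ones where both arrays were above background. Timp1 was higher in KO by 1.42 on the log2 scale (SE 0.34), with means of 10.85 ± 0.81 (SD, n = 4) in KO and 9.43 ± 0.20 (SD, n = 4) in WT. Mmp3 was higher by 0.85 (SE 0.29), with means of 11.52 ± 0.63 (SD, n = 4) and 10.67 ± 0.09 (SD, n = 4). Both did not overlap between the genotypes, as did 9.1% of all probes in this direction, and nothing is read from that, since the selection used the ratios of these samples. In the vehicle samples alone, which are the denominators of those ratios, the differences were smaller, at 0.78 for Timp1 (SE 0.17) and 0.29 for Mmp3 (SE 0.12). The other 8 genes overlapped. Mmp13 differed by 0.51 (SE 0.32), Timp3 by -0.37 (SE 0.22) and Mmp14 by -0.22 (SE 0.10), and the other 5 by -0.17 to 0.14. With processed signals at the 75th percentile the Timp1 difference was 1.55, and without the KO pair at 30 min 1.46. With the means of the 4 pairs, which leave 1 residual degree of freedom, 0 of all probes passed in limma, with 3304 at an unadjusted p below 0.05.

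Between 60 and 30 min, in the same fit, 0 of the 10 genes passed, where 10.8% of probes did. The differences are again given without a p, and Mmp12 and Adamts4 had entered the test through samples at 60 min. Mmp12 was higher at 60 min by 0.26 (SE 0.10), with no overlap, as 10.8% of probes had in this direction. Nothing is read from that, since samples at 60 min let Mmp12 into the test. Adamts4 was higher by 0.43 (SE 0.18), or by 1.95 with processed signals at the 75th percentile. Timp3 differed by -0.38 (SE 0.22). Without the KO pair at 30 min, the difference between times rests on the WT pair of each time, so only its size is given. It was -0.72 for Timp3, -0.37 for Mmp2 and -0.32 for Mmp14.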

How the data were processed

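Palm skin RNA of 4 pairs of samples was hybridised to 8 Agilent mouse arrays, 2 per pair with Cy3 and Cy5 exchanged. The authors read the scans with Agilent Feature Extraction (headers of the files 12.0.3.1, submitters' processing notes 11.0.1.1). Each deposited log10 ratio sets red against green signal after background subtraction and LOWESS normalization inside the array. Its deposited p-value comes from the software's error model of 1 array. The deposited intensity values are mean signals, local backgrounds and processed signals of each channel. The series matrix of the authors holds the same log10 ratios, within 5.0e-10 of those computed from the processed signals. Gene names and mm9 positions are those of the files, and promoter windows are RefSeq's on GRCm38.p6.

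Control spots and outlier spots were left out. Ratios were turned to PACAP over vehicle by the dyes in the labels and averaged over both arrays, and a gene with several probes was given by its brightest. Gene names counted as measured had that probe well above background on both arrays, in 1 channel or more. Levels were computed with limma 3.58.1 in R 4.3.3 (normexp with an offset of 50, loess, Aquantile) and tested with lmFit, eBayes, duplicateCorrelation and Benjamini-Hochberg adjustment, on probes that 1 RNA sample or more had well above background on both its arrays. The correlation within pairs (0.18) rests on few degrees of freedom, and in simulated data this fit made more false calls than its threshold allows, so its p-values may be too small. With no named animals per sample, p-values measure the spread between these samples. Python 3.11.15 with pandas 2.3.3 and matplotlib 3.10.9 was used for the other steps.

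The genes and lists were chosen with earlier results of these data known. The genes named are the 10 of the set and list genes called in any comparison. Cluster, marker and inhibitor genes whose values the text compares were chosen after they were seen. For each called gene, the 2 with the nearest ratios are also named. Alternatives were another normalization, median centring, other p and fold thresholds, any probe of a gene, the series matrix ratios, inclusion of outlier spots, single arrays, other sets of samples and filters, and each pair left out.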

Additional observations from a re-analysis of the deposited data

Results flagged for a closer look

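In 3 genes both WT ratios of PACAP over vehicle pointed one way and both KO ratios the other, as did 12.0% of the 23066 gene names measured in all 4 comparisons. The mean log2 ratio was higher in KO than in WT by 1.2 for Mmp3 and by 1.29 for Mmp10, and for Timp3 the difference was -0.53. With 1 pair of RNA samples per ratio, these differences between genotypes were not tested. For Mmp10 the arrays of a pair disagreed in direction in 3 of the 4 comparisons, and Timp3 in KO at 60 min was at 0.992-fold (0.960 and 1.03 on its arrays). With normexp and loess ratios Timp3 was at 1.03-fold there and no longer had this pattern, which left 2 of the 10 genes, Mmp3 and Mmp10. In that setting 10.6% of the gene names had it.

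The Adamts1 level in KO with PACAP at 60 min, 9.55, stood apart from the other KO samples, which lay between 9.04 and 9.06, with a gap of 0.958 of the whole range. This was 1 of 20 groups of 4 samples looked at, and chance flags about 1 in 20.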

How the results depend on the processing

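The calls in KO at 30 min numbered 3 to 5 and those of Mmp3, Mmp13 and Timp1 were kept under every alternative tried. Looser p and fold thresholds, any probe of a gene and the series matrix ratios could not lose a call. The genes were selected on these ratios, so nothing is read from the calls kept. The 6 calls over the 4 comparisons became 3 with normexp and loess ratios and 3 with the fold threshold on each array. The 2 calls in KO at 60 min became 0 under both of these, and 4 with a 1.5-fold threshold, which added Mmp3 and Timp1. With no p filter 1 gene was called in WT at 30 min (Adamts4) and 1 at 60 min (Mmp12), where none was before. On single arrays the calls numbered 0 to 1 in WT at 30 min, 0 to 2 in WT at 60 min, 3 to 4 in KO at 30 min and 1 to 3 in KO at 60 min, or 5 to 9 in all. The 1 in KO at 60 min, on the arrays with PACAP in Cy3, was a fall of Mmp12, and neither Mmp13 nor Adamts4 was called there. Mmp13 in WT at 60 min was at 3.91-fold and called on the array with PACAP in Cy5 and at 0.751-fold on the other. The cause of these changes was not tested.

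Of the 10 genes, 1 passed in KO against WT (Timp1) and 1 in 60 against 30 min (Adamts4) with processed signals at the 75th percentile. With each pair left out in turn, 0 to 1 passed in KO against WT and 0 to 3 in 60 against 30 min, always 0 except without the KO pair at 30 min. In the other alternatives 0 passed. These counts hold samples that the selection used, and Adamts4 was tested only because its KO samples at 60 min were above background, so nothing is read from them. Over all probes, the 897 calls of KO against WT became 0 with pair means, 0 with vehicle samples only (3775 at an unadjusted p below 0.05 in limma), 3179 with processed signals, 2305 with no filter on dim probes and 344 with probes above background in every sample. The 2834 calls of 60 against 30 min became 0, 0, 3557, 4229 and 942. With a pair left out they ranged from 0 to 2768 and from 0 to 10700.

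No paired analysis was possible because, in place of matched animals, the replicate numbers in the labels mark the dye orientations of the same RNA samples, which were averaged. The hybridised pair was used as a block instead. Dim probes limit the ratios of Mmp10, Mmp12, Mmp13, Mmp14 and Adamts4, and every value is limited by the small number of arrays.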
